A study of Mus musculus with 10 samples.

Results

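The genes of the mouse major histocompatibility complex (MHC), named H2, were measured by RNA sequencing in 10 mouse melanomas. Members were taken by symbol, as every gene whose symbol starts with H2- except the H2-Ke genes, which gave 43 of the 47643 genes in the count table. They were 2 classical class I genes (H2-K1 and H2-D1), 27 non-classical class I genes of the Q, T and M regions, 2 further class I genes outside these names (H2-K2 and H2-Bl) and 12 class II genes. Some are pseudogenes in the GENCODE M21 annotation, among them H2-K2 (transcribed) and H2-Bl, H2-Q5, H2-T10 and H2-Ea-ps (polymorphic). All 43 lay on chromosome 17, between positions 33974659 and 37483552 of GRCm38. The tumours fell into 5 labelled Fes knockout (Fes KO, Fes-/-) and 5 labelled wild type (Fes WT, Fes+/+). Mice of both groups also carried Tyr::CreERT2/+, BRafV600E/+ and Ptenl/l, and their back skin was treated with 5 mM 4OH-Tamoxifen. Tyr::CreERT2 expresses a tamoxifen-dependent Cre recombinase from the promoter of the pigment enzyme tyrosinase and so directs recombination to melanocytes. The labels used here give neither age, sex nor strain, nor whether each tumour came from its own animal, and p-values therefore cover only the spread from tumour to tumour, which may be technical. In a piece of whole tumour, fewer cells of a type and less RNA per cell cannot be told apart.

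Classical class I molecules sit on nearly all nucleated cells and show peptides made inside the cell to CD8 T cells, as a heavy chain bound to beta-2-microglobulin. Non-classical class I molecules vary less between individuals and serve more specialised roles, such as binding to natural killer receptors. Class II molecules, pairs of an alpha and a beta chain, sit mainly on dendritic cells, macrophages and B cells and show peptides taken up from outside to CD4 T cells. Interferon gamma raises both classes, through the regulator Nlrc5 for class I and Ciita for class II, which act on conserved promoter boxes. The chains of 1 region lie side by side and differ widely between inbred strains, which carry different sets of them.

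The conserved boxes can be read in the promoters of the members. RefSeq promoter windows (GRCm38.p6) were matched by symbol for 30 of the 43 members. The following 4 show a classical, a Q region, an M region and a class II gene, each read 5′ to 3′ on the gene's strand and ending at the base before its start, with capitals for matches to GTTTCNCTT (the interferon-stimulated response element), GGGGA and TCCC with 1 base of any kind between them (an NF-kappaB site), ATTGG (the core of the Y box) and TGACG (the core of the X2 box) on either strand. They cover chr17:34000348-34000597 on the minus strand for H2-K1, chr17:35379367-35379616 on the plus strand for H2-Q4, chr17:37269984-37270219 on the plus strand for H2-M3 and chr17:34287824-34288073 on the minus strand for H2-Aa.
H2-K1: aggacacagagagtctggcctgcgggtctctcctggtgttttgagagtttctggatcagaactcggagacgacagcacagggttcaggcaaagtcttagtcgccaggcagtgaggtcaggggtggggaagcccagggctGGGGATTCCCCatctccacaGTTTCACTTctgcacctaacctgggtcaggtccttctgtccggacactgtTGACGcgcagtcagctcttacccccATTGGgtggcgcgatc
H2-Q4: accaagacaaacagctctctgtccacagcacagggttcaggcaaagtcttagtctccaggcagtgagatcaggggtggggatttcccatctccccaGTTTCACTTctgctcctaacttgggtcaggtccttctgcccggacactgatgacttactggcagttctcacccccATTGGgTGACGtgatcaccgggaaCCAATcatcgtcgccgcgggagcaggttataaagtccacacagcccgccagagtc
H2-M3: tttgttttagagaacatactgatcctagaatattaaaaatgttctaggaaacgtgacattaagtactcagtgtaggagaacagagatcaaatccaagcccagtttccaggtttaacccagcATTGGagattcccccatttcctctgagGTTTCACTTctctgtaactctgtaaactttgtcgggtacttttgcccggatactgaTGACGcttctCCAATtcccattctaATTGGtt
H2-Aa: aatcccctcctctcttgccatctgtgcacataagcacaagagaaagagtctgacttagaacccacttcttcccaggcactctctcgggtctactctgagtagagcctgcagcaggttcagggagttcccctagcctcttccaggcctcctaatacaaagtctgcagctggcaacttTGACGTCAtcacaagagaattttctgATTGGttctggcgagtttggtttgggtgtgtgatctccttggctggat
GTTTCNCTT stood in the H2-K1, H2-Q4 and H2-M3 windows and in 10 of the 30 members, counted where any window of a member matched, against 498 of all 32851 promoters (1.52%). The NF-kappaB letters stood in 4 members, H2-K1 and, of those not printed, H2-D1, H2-Q6 and H2-Q7, against 95 of all promoters (0.289%). ATTGG stood in 27 of the 30 members, in H2-DMa by the second of its windows, and in 33.8% of all promoters, and TGACG in 12 members and 17.8% of all promoters. The letters searched were settled with the members' promoters in view, and a match describes the letters only.

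The class I genes also resemble each other in their coding sequence, which bears on how reads are assigned to them. The first 60 bases of the second coding exon, which encodes the start of the alpha-1 domain that holds the peptide, are shown from the GENCODE M21 transcripts for H2-Q7, H2-Q6, H2-D1, H2-K1 and H2-M3, with capitals for bases that differ from H2-Q7. They come from chr17:35439452-35439511 (plus), chr17:35425108-35425167 (plus), chr17:35263379-35263438 (plus), chr17:33999944-34000003 (minus) and chr17:37270522-37270581 (plus) in that order.
H2-Q7: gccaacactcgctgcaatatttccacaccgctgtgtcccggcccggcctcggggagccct
H2-Q6: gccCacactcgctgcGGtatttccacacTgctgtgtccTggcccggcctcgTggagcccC
H2-D1: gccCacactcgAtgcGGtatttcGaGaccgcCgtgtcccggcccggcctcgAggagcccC
H2-K1: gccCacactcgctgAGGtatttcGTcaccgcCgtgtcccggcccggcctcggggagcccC
H2-M3: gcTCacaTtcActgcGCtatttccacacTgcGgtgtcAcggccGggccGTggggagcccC
H2-Q6 differed from H2-Q7 at 7 of the 60 bases, H2-K1 at 8, H2-D1 at 9 and H2-M3 at 13. Over whole transcripts, 26.4% of the 50-base stretches of H2-Q7 and 32.0% of those of H2-Q6 also occurred in a transcript of another gene, against 12.8% for H2-D1, 9.63% for H2-K1 and 0.576% for H2-M3. Reads from such stretches can be split or lost, so the counts of the Q genes, and of H2-T10 (32.9%) and H2-T22 (34.5%), are uncertain. The class II genes H2-Ab1, H2-Eb1, H2-DMa, H2-Oa and H2-Ob shared no such stretch. Exons of H2-Oa, H2-DMa, H2-Q4, H2-T22 and H2-T10 overlap a gene on the other strand, and whether the counting used strand is not given in the sources used here.

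Each tumour had 13226783 to 16599120 counted reads, of which the members took 0.0953% to 0.699%. Fes itself was at 29.2 to 57.5 CPM (counts scaled to library size) in the Fes KO tumours and 72.5 to 102 CPM in the Fes WT tumours, so the groups did not overlap and the Fes KO tumours were not at 0. The melanoma label was set against 8 melanocyte markers. Sox10, the transcription factor of the melanocyte lineage, was at 392 to 970 CPM in every tumour, whereas Mlana and Tyrp1, a melanosome protein and a pigment enzyme, had 0 counts in at least 1 tumour each. Of the 8 markers, 7 had a log2 fold change above 0, opposite to most MHC genes, with a median of 3.24 and 0 called. A single tumour, Fes KO 2, stood far above the rest. Its Mlana, Tyr, Tyrp1 and Slc45a2 were at 27.2, 51.1, 71.3 and 16.5 CPM, against at most 2.22, 6.66, 4.20 and 3.14 CPM elsewhere. Fes KO 5 had 0 CPM of Mlana and Tyrp1. Dct, a pigment enzyme, was at 6.78 to 21.4 CPM in Fes WT and at 35.4, 325, 47.0, 29.9 and 1.89 CPM in Fes KO. The summed melanocyte markers were at 520.4 to 869 CPM in Fes WT and 809.6 to 1039 CPM in Fes KO. Sox10 made up most of this sum except in Fes KO 2, where it was at 392 of 952 CPM. The part of the melanocyte markers in the MHC levels was not tested. Summed keratinocyte markers stood at 4581 CPM in Fes KO 2 against at most 192 CPM elsewhere, and summed skeletal muscle markers at 14043 CPM in Fes WT 3.

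No MHC gene passed the threshold between Fes KO and Fes WT in edgeR, but most had lower average counts in Fes KO. Of the 43 members, 8 had 0 counts in every tumour and 4 reached at most 3 counts, and 25 passed the filter on low counts and were tested. In edgeR's quasi-likelihood test 0 of the 25 were called at an adjusted p below 0.05, against 26 of all 14816 tested genes (0.175%), of which 19 were lower (0.128%) and 7 higher (0.0472%). Limma-voom and limma on the deposited log2 values also called 0 members, against 25 of all tested genes in each (0.169%). At an unadjusted p below 0.05 there were 5 of the 25, namely H2-M3, H2-Q10, H2-Eb1, H2-D1 and H2-Q4, against 1425 of all tested genes (9.62%). The log2 fold change, Fes KO minus Fes WT, lay below 0 for 22 of the 25 against 47.6% of all tested genes, with a median of -0.76 against 0.01 over all tested genes. Genes of the same cells move together, so this count is not a count of separate observations. Without Fes WT replicate 5, the tumour with the highest level of the classical genes, the median of the 25 was -0.43 and 20 lay below 0.

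**Figure D1:**
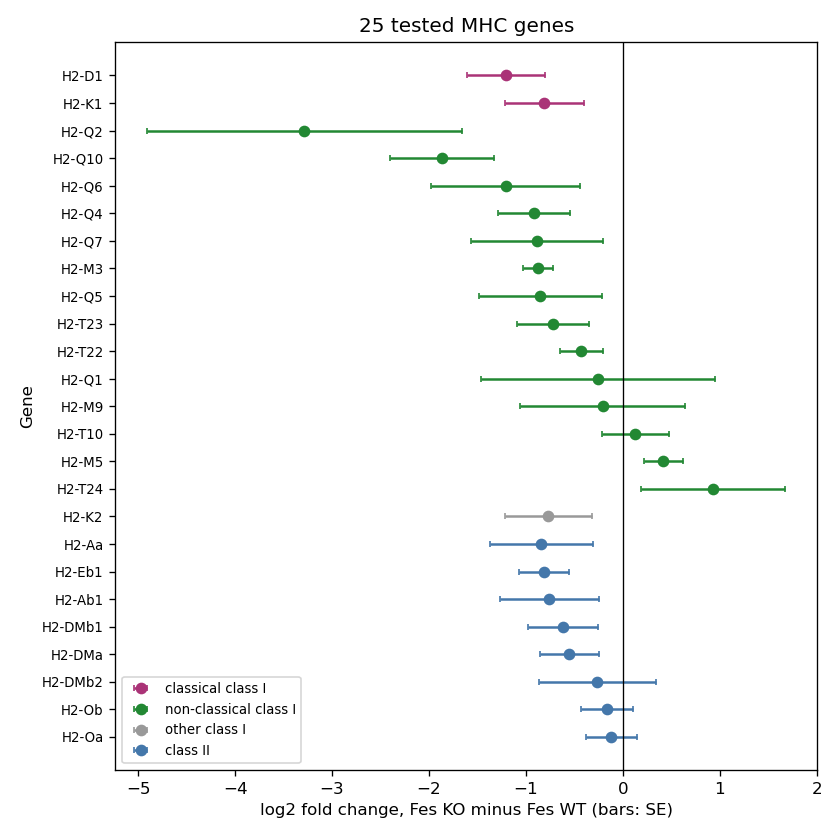
Log2 fold change (Fes KO minus Fes WT, x axis, with SE as bars) of the 25 tested MHC genes (y axis), coloured by class. H2-M5, H2-T24 and H2-T10 are the 3 points above 0, and H2-M3 has the shortest bar, at 0.15.

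The classical class I genes, the main peptide-presenting heavy chains, were the most abundant members. H2-D1 (ENSMUSG00000073411, 35262730 to 35267499) was at 835, 1191, 1077, 1291 and 2976 CPM in Fes WT 1 to 5 and at 700.2, 863, 321, 907 and 409.6 CPM in Fes KO 1 to 5. Fes WT 5 stood far above the other 9 tumours, and Fes KO 3 and Fes KO 5 were the lowest, while Fes KO 2 and Fes KO 4 lay just above the lowest Fes WT tumour. Fes KO 3 and Fes KO 5 also had the most similar counts of all pairs of tumours. Their chi-square per gene was 21.2, against 42.2 for the next pair, Fes KO 1 and Fes KO 4. Whether Fes KO 3 and Fes KO 5 came from separate animals is not given. The log2 fold change of H2-D1 was -1.20 (SE 0.40), with an adjusted p of 0.381. H2-K1 (ENSMUSG00000061232, 33996017 to 34000347) was at 481, 398, 716, 636 and 1258 CPM in Fes WT and at 429, 633, 169.9, 533 and 228 CPM in Fes KO. Its groups overlapped between 398 and 633 CPM, again with Fes WT 5 highest and Fes KO 3 and 5 lowest, and its log2 fold change was -0.81 (SE 0.41, adjusted p = 0.569). Per kilobase of exon the median levels over the 10 tumours were 343 CPM for H2-D1 and 173 CPM for H2-K1, above every other member. Between tumours H2-D1 spanned 9.28-fold and H2-K1 7.41-fold.

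**Figure D2:**
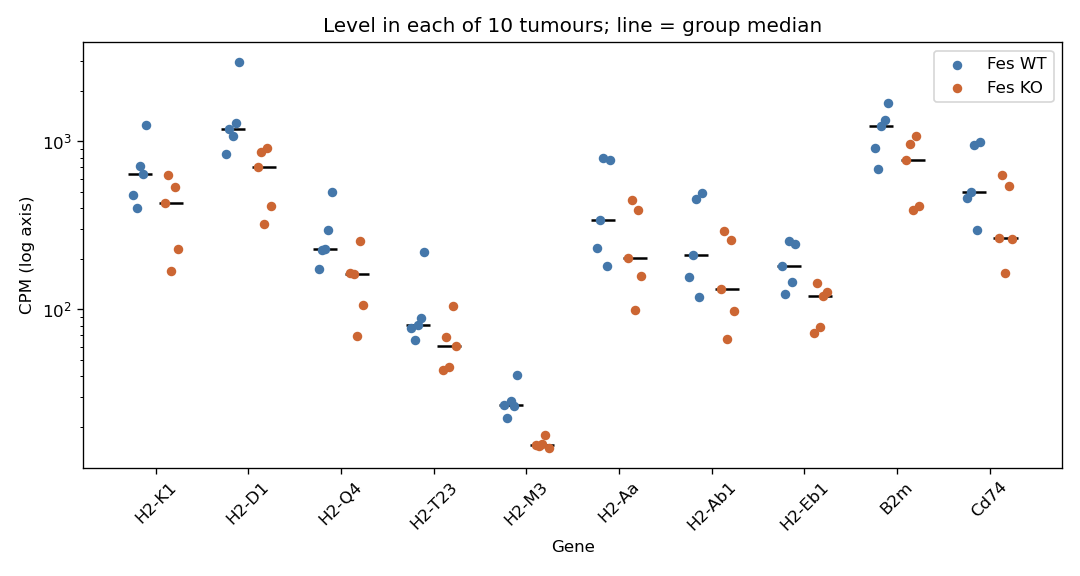
Level of 8 MHC genes, B2m and Cd74 in each of the 10 tumours (CPM, log axis), with a line at each group's median. Groups overlap for every gene shown except H2-M3, where the Fes KO tumours sit at 14.9 to 17.8 CPM and the Fes WT tumours at 22.7 to 40.7 CPM.

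H2-M3 was the one tested member whose groups did not overlap. It encodes a non-classical class I molecule known for presenting peptides that start with N-formylmethionine, as bacteria and mitochondria make them. H2-M3 (ENSMUSG00000016206, 37270220 to 37274484) was at 27.0, 22.7, 28.5, 26.5 and 40.7 CPM in Fes WT and at 15.6, 15.3, 15.7, 17.8 and 14.9 CPM in Fes KO. The Fes KO tumours lay within a narrow band, 15.9 ± 1.15 CPM (SD, n = 5), below the Fes WT mean of 29.1 ± 6.85 CPM (SD, n = 5). The log2 fold change was -0.87 (SE 0.15), with an adjusted p of 0.0778 in edgeR over all genes. DESeq2 gave an adjusted p of 7.2e-05, and edgeR without Fes WT replicate 5 gave -0.72 with an adjusted p of 0.0315. H2-M3 was called in 2 of 20 alternatives, whose adjusted p ranged from 7.2e-05 to 0.272. Non-overlap in either direction held for 281 of all tested genes (1.90%), with Fes KO lower in 165 of them (1.11%). Within Fes WT, H2-M3 and H2-K1 were both lowest in Fes WT 2 and highest in Fes WT 5. Within Fes KO, the tumours lowest for H2-K1, Fes KO 3 and Fes KO 5, had 15.7 and 14.9 CPM of H2-M3 beside 15.6 and 15.3 CPM in Fes KO 1 and 2.

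In the Q region, levels were spread widely within both groups. H2-Q4, a class I heavy chain gene, was at 173, 226, 228, 295 and 499 CPM in Fes WT and at 164, 161, 69.0, 254 and 105 CPM in Fes KO. Only Fes KO 4 among the Fes KO tumours lay within the Fes WT range, and the log2 fold change was -0.91 (SE 0.37, adjusted p = 0.481). Its level per kilobase of exon, a median of 76.8 CPM, was the third highest of the members. H2-Q7, which encodes the GPI-anchored Qa-2 antigen, spanned 13.6 to 100.1 CPM in Fes WT and 7.77 to 60.9 CPM in Fes KO, a log2 difference of -0.88 (SE 0.68, adjusted p = 0.706). Its close neighbour H2-Q6 spanned 11.2 to 98.8 CPM in Fes WT and 3.20 to 52.4 CPM in Fes KO (-1.21, SE 0.77, adjusted p = 0.641). In both, Fes KO 2 lay above 3 of the Fes WT tumours. The SD within Fes WT, 36.8 CPM for H2-Q7 and 35.2 CPM for H2-Q6, was larger than the difference between the group means.

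H2-Q10, named after its values were seen, encodes a class I molecule known for secretion by the liver. It was at 7.31, 5.92, 4.86, 3.36 and 16.7 CPM in Fes WT and at 0.820, 3.43, 1.29, 3.47 and 1.38 CPM in Fes KO. Fes KO 2 and Fes KO 4 reached just above the lowest Fes WT tumour, so the groups overlapped at their edges. The log2 fold change was -1.87 (SE 0.54), with an adjusted p of 0.313 in edgeR and of 0.0343 in DESeq2. DESeq2 thus called 2 members, H2-M3 and H2-Q10, of the 25, against 270 of all 14537 genes with a value (1.86%). H2-Q5, also named after its values were seen, was at 6.71 ± 3.87 CPM in Fes WT and 3.71 ± 2.93 CPM in Fes KO (SD, n = 5 each), a log2 difference of -0.85 (SE 0.64, adjusted p = 0.693).

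Of the 4 tested T region genes, 2 lay below and 2 above 0. H2-T23, whose product Qa-1 binds the NKG2A receptor of natural killer cells, was at 77.2, 65.6, 81.0, 88.2 and 219 CPM in Fes WT and at 43.2, 68.5, 45.1, 105 and 60.2 CPM in Fes KO (-0.72, SE 0.37, adjusted p = 0.569). Fes WT 5 alone set the upper end of Fes WT, without it the log2 fold change was -0.28, it was -0.15 without the 3 tumours that expressed Xist, an RNA of the inactive X chromosome (Fes KO 1, Fes KO 2 and Fes WT 5), and 3 of the Fes KO tumours lay below the Fes WT range. H2-T22, a ligand of gamma delta T cell receptors, spanned 55.7 to 126 CPM in Fes WT and 47.8 to 81.7 CPM in Fes KO (-0.43, SE 0.22, adjusted p = 0.576). The related H2-T10 spanned 7.38 to 17.4 CPM in Fes WT and 6.49 to 20.4 CPM in Fes KO, a log2 difference of 0.13 (SE 0.35, adjusted p = 0.928) that was -0.15 without Fes KO replicate 4. H2-T24 was at 3.05 to 8.31 CPM in Fes WT and at 8.32, 12.6, 1.91, 29.8 and 1.24 CPM in Fes KO, so that 3 Fes KO tumours lay above and 2 below every Fes WT tumour. Its log2 fold change was 0.93 (SE 0.74, adjusted p = 0.716), or 0.094 without Fes KO replicate 4, and H2-T10 and H2-T24 were named after their values were seen.

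Of the other M region genes, 2 were tested. H2-M5, named like H2-M9 after its values were seen, was at 1.25 to 2.04 CPM in Fes WT and 1.89 to 2.62 CPM in Fes KO (0.42, SE 0.20, adjusted p = 0.545). H2-M9 spanned 1.30 to 10.6 CPM in Fes WT and 0.312 to 7.39 CPM in Fes KO, and its log2 fold change of -0.21 (SE 0.85, adjusted p = 0.953) turned to 0.52 without Fes WT replicate 2. The H2-M10 genes, known for their expression in vomeronasal sensory neurons, had 0 counts in every tumour (H2-M10.1 to H2-M10.6 and H2-M10.5-ps1), as had the class II pseudogene H2-Pb. A count of 0 allows a level of up to 3 counts, or 0.183 to 0.229 CPM depending on the tumour, for counting error only. The 14 tested non-classical class I genes had a median log2 fold change of -0.79, with 11 below 0. Of the class I genes outside the Q, T and M names, H2-K2 was tested, at 1.70 to 10.1 CPM in Fes WT and 1.85 to 3.80 CPM in Fes KO (-0.77, SE 0.45, adjusted p = 0.611).

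The class II genes had lower mean counts in Fes KO as well, with the groups overlapping in every tested gene. H2-Aa encodes the alpha chain of the A molecule, and was at 232, 339.5, 794, 181 and 769 CPM in Fes WT and at 201, 448, 98.5, 391 and 157 CPM in Fes KO. Fes WT 3 and Fes WT 5 stood above all other tumours, but Fes KO 2 and Fes KO 4 were higher than the 3 remaining Fes WT tumours, and the log2 fold change was -0.84 (SE 0.53, adjusted p = 0.633). Its partner beta chain gene H2-Ab1 was at 156, 209, 454, 119 and 490.0 CPM in Fes WT and at 132, 291, 66.7, 258 and 97.1 CPM in Fes KO (-0.76, SE 0.51, adjusted p = 0.659). The tumours kept almost the same order for both chains of the pair. H2-Eb1, the beta chain of the E molecule, was at 181, 124, 254, 145 and 246 CPM in Fes WT and at 72.0, 144, 78.9, 119.6 and 127 CPM in Fes KO. Fes KO 2 and Fes KO 5 reached into the lower end of Fes WT, and the log2 fold change was -0.81 (SE 0.26, adjusted p = 0.345). Per kilobase of exon the medians were 75.3 CPM for H2-Aa, 71.1 CPM for H2-Ab1 and 69.6 CPM for H2-Eb1, so these chains stood at like levels.

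The genes that help load class II molecules were lower in level. H2-DMa and H2-DMb1 encode the chains of the DM molecule, which exchanges the peptides bound to class II. H2-DMa spanned 18.7 to 50.8 CPM in Fes WT and 15.8 to 31.9 CPM in Fes KO (-0.55, SE 0.31, adjusted p = 0.595). H2-DMb1 spanned 12.8 to 33.5 CPM in Fes WT and 8.32 to 23.2 CPM in Fes KO (-0.62, SE 0.36, adjusted p = 0.606). H2-DMb2, a second DM beta chain gene named after its values were seen, had -0.26 (SE 0.60, adjusted p = 0.918). H2-Oa and H2-Ob, the chains of the DO molecule that holds DM back mainly in B cells, were at 0.947 to 2.04 CPM and 2.40 to 5.58 CPM over all tumours, with log2 fold changes of -0.12 (SE 0.27, adjusted p = 0.917) and -0.16 (SE 0.27, adjusted p = 0.878). These were the smallest differences among the tested class II genes. All 8 tested class II genes lay below 0, with a median of -0.59.

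The level of a whole class was read from its summed CPM. The classical genes summed to 1316, 1589, 1794, 1927 and 4234 CPM in Fes WT and to 1129, 1496, 491, 1440.4 and 638 CPM in Fes KO. The class II genes summed to 624, 733, 1602, 484 and 1608 CPM in Fes WT and to 442, 957, 274, 839 and 418 CPM in Fes KO. Fes KO 3 was the lowest tumour in both sums. In Fes WT, the tumour with the lowest class II sum, Fes WT 4, had the second highest classical sum, so the 2 classes did not move in step there.

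Markers of immune cells were set beside these levels. All 10 macrophage markers were tested and lay below 0, and their summed level was 3417, 1913, 2508, 1450.1 and 2526 CPM in Fes WT and 954, 2027, 918, 2137 and 906 CPM in Fes KO. Fes KO 2 and Fes KO 4, the Fes KO tumours with the most class II RNA, were also those with the most macrophage marker RNA. Fes WT 1 had the highest macrophage sum of all with a class II sum of 624 CPM, below those 2 Fes KO tumours, and Fes WT 4 had the lowest leukocyte sum of its group with the second highest classical sum. All 8 general leukocyte markers lay below 0, with sums of 352 to 715 CPM in Fes WT and 198 to 591 CPM in Fes KO. Dendritic cell markers, 9 of 10 below 0, summed to 98.2 to 162 CPM in Fes WT and 83.1 to 122 CPM in Fes KO. Fes KO 1, Fes KO 3, Fes KO 5 and Fes WT 4 had the lowest class II sums, at 442, 274, 418 and 484 CPM. The same tumours were lowest for macrophage markers. They were also lowest for leukocyte sums (207, 198, 216 and 352 CPM) and dendritic cell sums (87.0, 83.1, 96.4 and 98.2 CPM). B cell markers, with 1 of 2 tested below 0, were low, at sums of 3.33 to 13.5 CPM over all tumours, with Ms4a1, Pax5 and Fcer2a among those at 0 in some. T cell and NK cell markers summed to at most 21.3 CPM and 14.3 CPM, with Cd3d, Cd3g, Cd5, Gzma, Gzmb and Ncr1 at 0 in some. All 5 tested T cell markers lay below 0, with a median of -1.12, as did 3 of 4 tested NK cell markers, with a median of -1.45. Outside the immune lists, 2 of 8 endothelial and 5 of 8 fibroblast markers lay below 0. The part of these cells in the MHC levels was not tested.

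**Figure D3:**
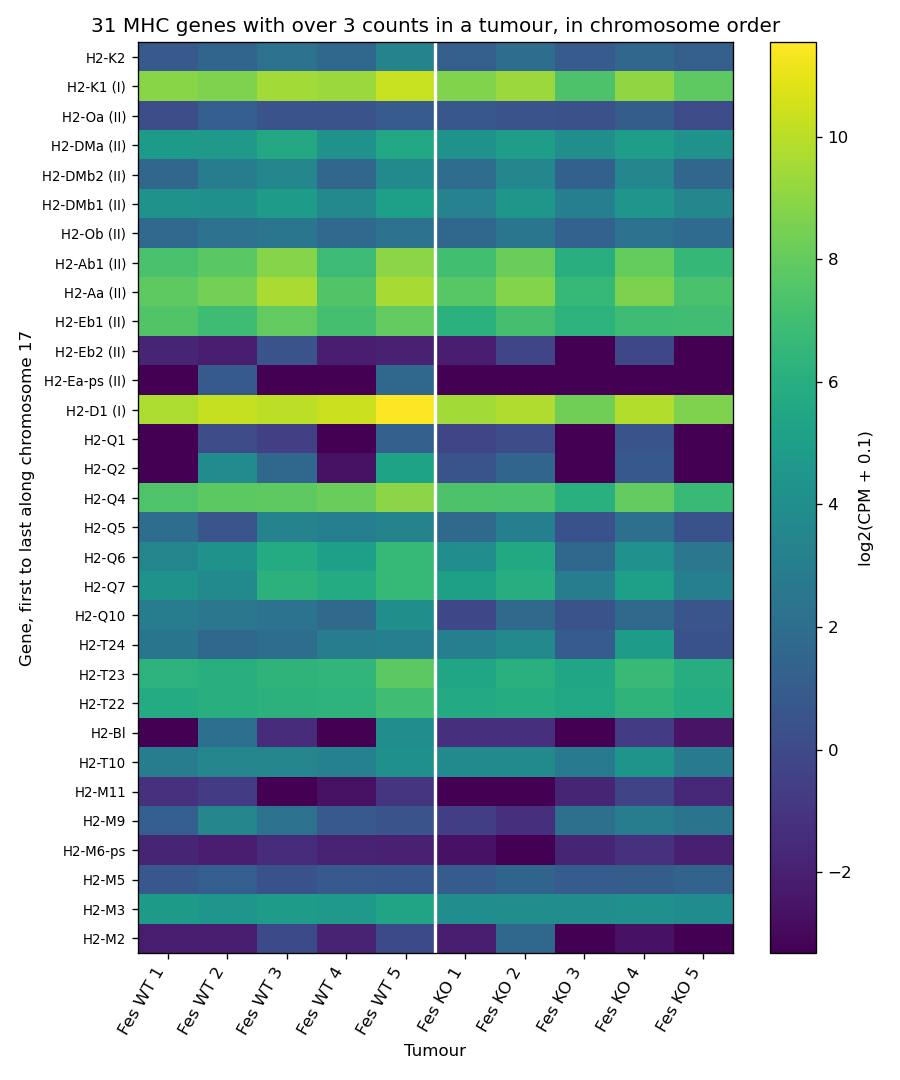
Level (colour, log2 of CPM + 0.1) of the 31 MHC genes with more than 3 counts in a tumour, in order along chromosome 17 (y axis), in each of the 10 tumours (x axis), with Fes WT left of the white line; I and II mark classical class I and class II. H2-Q1 and H2-Q2 are dark in Fes WT 1, Fes WT 4, Fes KO 3 and Fes KO 5, whereas H2-Ea-ps is light only in Fes WT 2 and Fes WT 5.

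Some members had counts in some tumours and few or none in others, and no member divided the tumours fully by Fes genotype. H2-Q1 and H2-Q2 were off in tumours of both groups, whereas H2-Ea-ps had counts in Fes WT tumours only. Counting a gene as on and off when it reached at least 1 CPM in a tumour and at most 3 counts in another, 6 members qualified, H2-Ea-ps, H2-Eb2, H2-Q1, H2-Q2, H2-Bl and H2-M2. That is 6 of the 35 members with a count, against 1982 of 28496 genes with a count (6.96%). H2-Q2, a Q region class I gene (35342242 to 35346762), had 0, 228, 46, 1 and 508 counts in Fes WT 1 to 5 and 21, 44, 0, 25 and 0 counts in Fes KO 1 to 5. It was thus off in Fes WT 1, Fes WT 4, Fes KO 3 and Fes KO 5, on in the other 6 tumours, and highest in Fes WT 2 and Fes WT 5. Its log2 fold change was -3.28 (SE 1.62, adjusted p = 0.560), and ranged from -4.16 to -1.79 over the alternatives. H2-Q1, its neighbour (35320405 to 35325099), had 0, 15, 9, 0 and 29 counts in Fes WT and 12, 15, 0, 21 and 0 counts in Fes KO, off in the same 4 tumours. Its log2 fold change was -0.26 (SE 1.21, adjusted p = 0.961). H2-Q1 and H2-Q2 share 9.05% of the 50-base stretches of H2-Q1.

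**Figure D4:**
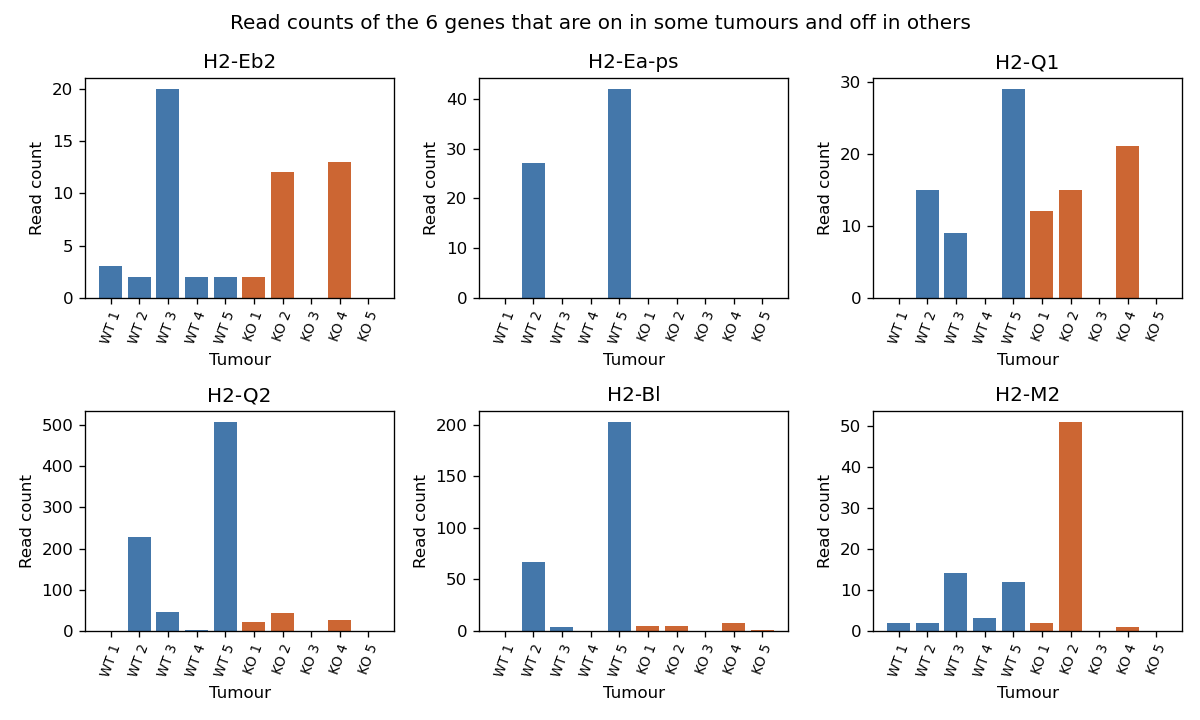
Read counts of the 6 on and off MHC genes in each tumour (blue Fes WT, orange Fes KO), each panel with its own scale from 0. H2-Q1 and H2-Q2 have at most 1 count in Fes WT 1, Fes WT 4, Fes KO 3 and Fes KO 5, whereas H2-Ea-ps has counts only in Fes WT 2 (27) and Fes WT 5 (42).

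H2-Ea-ps (34341959 to 34344645) was seen in 2 tumours only. In some mouse haplotypes this gene encodes the alpha chain that pairs with H2-Eb1, and in others, among them the b haplotype of C57BL/6, it is not transcribed. It had 27 counts (1.72 CPM) in Fes WT 2, 42 counts (3.20 CPM) in Fes WT 5 and 0 counts in the other 8 tumours, all 5 Fes KO tumours included. None of its 50-base stretches occurred in another gene. H2-Bl, a class I polymorphic pseudogene of the T region (36080115 to 36084223), had 67 and 203 counts in the same Fes WT 2 and Fes WT 5 and 0 to 8 counts elsewhere. Fes WT 2 and Fes WT 5 were thus the highest tumours for H2-Q2, H2-Bl and H2-Ea-ps.

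The remaining 2 on and off members had few or no counts in most tumours. H2-M2 had 51 counts in Fes KO 2, 14 and 12 in Fes WT 3 and Fes WT 5, and 0 to 3 in the rest. Summed keratinocyte markers were at 4581 CPM in Fes KO 2, 89.8 CPM in Fes WT 3 and 192 CPM in Fes WT 5, against at most 11.3 CPM in the rest. Fes WT 3 and Fes KO 2 had the most skeletal muscle marker RNA. The part of those tissues in H2-M2 was not tested. H2-Eb2, a second E beta chain gene, had 20 counts in Fes WT 3, 12 and 13 in Fes KO 2 and Fes KO 4, and 0 to 3 in the others. H2-Ea-ps, H2-Eb2, H2-Bl and H2-M2 did not pass the filter and were not tested.

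The pattern of H2-Q2 was looked for over all genes, as at most 3 counts in Fes WT 1, Fes WT 4, Fes KO 3 and Fes KO 5 but no fewer than 5 counts in the other 6 tumours. Of the 28496 genes with a count, 8 had it, and 0 had the opposite. Of the 8, 7 lay on chromosome 17, namely H2-Q1, H2-Q2, the class I-like gene Gm8909, the pseudogenes Gm4134, Gm18733 and Gm18734, and the chemokine receptor gene Ccr6. The other was Gm10263, a processed pseudogene on chromosome 13. Gm8909 (36164443 to 36168537) was the most abundant, with 162 to 762 counts in the 6 tumours and 0 to 3 in the 4. Gm4134 lies at 33861302 to 33864228, before the first member, and Gm18733 and Gm18734 lie between H2-D1 and H2-Q1. Ccr6, at 8236043 to 8257141, had 5 to 8 counts in the 6 tumours, the lowest of the set. These 8 genes were picked for the pattern, so no test is given. No label used here names the MHC haplotype of the mice, and its part in these values and in the differences between Fes KO and Fes WT was not tested.

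Some ratios between members also set the tumours without H2-Q1 and H2-Q2 apart, and others did not. The pairs were chosen after their values were seen, so the ratios are a description. The count of H2-Eb1 divided by that of H2-Ab1 was 1.16, 1.22, 1.18 and 1.30 in Fes WT 1, Fes WT 4, Fes KO 3 and Fes KO 5, the tumours without H2-Q1 and H2-Q2, and 0.464 to 0.591 in the other 6. Neither H2-Eb1 nor H2-Ab1 shares 50-base stretches with another gene, but loss of reads that differ from the reference was not tested. H2-DMb2 over H2-DMb1 was 0.148, 0.224, 0.281 and 0.247 in those 4 tumours and 0.403 to 0.559 in the other 6, although 22.7% of the stretches of H2-DMb1 are shared with H2-DMb2. The widest gap of that ratio, from 0.148 to 0.224, set Fes WT 1 alone apart. By contrast, H2-Aa over H2-Ab1 stayed between 1.48 and 1.75 in all 10 tumours. H2-Q6 over H2-Q7 was 0.413 to 0.711 in those 4 tumours and 0.460 to 1.44 in the other 6, so they overlapped. The same held for H2-M3 over H2-K1, at 0.0417 to 0.0925 and 0.0242 to 0.0569.

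**Figure D5:**
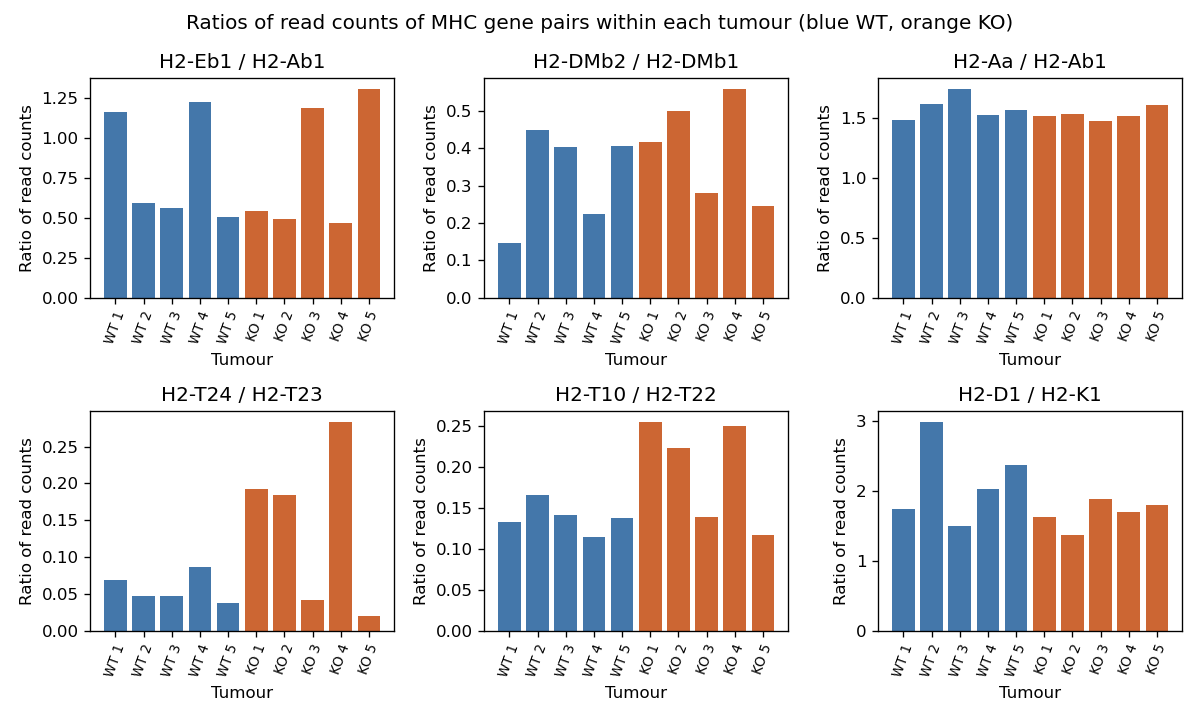
Ratio of read counts of 6 pairs of MHC genes in each tumour (blue Fes WT, orange Fes KO; y axes from 0). H2-Eb1 over H2-Ab1 is above 1 in Fes WT 1, Fes WT 4, Fes KO 3 and Fes KO 5 but at most 0.591 in the others, and H2-T24 over H2-T23 is highest in Fes KO 1, Fes KO 2 and Fes KO 4.

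In the T region, further along the chromosome, the tumours split in another way. H2-T24 over H2-T23 was 0.193, 0.184 and 0.284 in Fes KO 1, Fes KO 2 and Fes KO 4 and 0.0206 to 0.0871 in the other 7 tumours. H2-T10 over H2-T22 was 0.255, 0.223 and 0.250 in the same 3 Fes KO tumours and 0.115 to 0.166 in the other 7. Outside the T region, H2-D1 over H2-K1 was highest in Fes WT 2 and Fes WT 5, at 2.99 and 2.36, and 1.36 to 2.03 in the other 8. Its widest gap, from 2.36 to 2.99, set Fes WT 2 alone apart. Read together, Fes WT 1, Fes WT 4, Fes KO 3 and Fes KO 5 had at most 1 count of each of H2-Q1 and H2-Q2. They also had more H2-Eb1 than H2-Ab1 counts. Fes KO 1, Fes KO 2 and Fes KO 4 had H2-Q1 and H2-Q2 with high T region ratios. Fes WT 2 and Fes WT 5 had H2-Ea-ps and the highest H2-Bl. Fes WT 3 had H2-Q1 and H2-Q2 with 0 counts of H2-Ea-ps, 4 counts of H2-Bl and T region ratios in the lower range, where Fes KO 1, Fes KO 2 and Fes KO 4 had 5, 5 and 8 counts of H2-Bl. High T region ratios were thus seen in Fes KO tumours only, and H2-Ea-ps counts in Fes WT tumours only. The part of this uneven spread in the fold changes between Fes KO and Fes WT was not tested.

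Genes lying among the members did not share their direction as a set. The interval of the members held 275 other genes, of which 99 were tested, and 51 of these lay below 0 with a median log2 fold change of -0.00. The 99 include the antigen presentation genes Tap1, Tap2, Psmb8 and Psmb9, at -0.34, -0.37, -0.66 and -0.72. Of the 99, 1 was called in edgeR, against 26 of all 14816 tested genes (0.175%). It was Gm9574, named for this after its value was seen, with -1.82 (SE 0.28, adjusted p = 0.0466 in edgeR). Its call was lost in 14 of 20 alternatives, among them the fits without Fes WT replicates 2, 3 and 4 and without each Fes KO replicate, and its adjusted p ranged from 2.0e-04 to 0.227. Of the 187 other genes with a count, 17 were on and off by the same measure as the members, against 1982 of all 28496 genes with a count (6.96%).

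The other genes of antigen presentation were read from 6 lists of 83 genes in all, chosen by role, of which 71 were tested, 57 of them below 0 against 47.6% of all tested genes. In edgeR 0 of the 71 were called, against 0.175% of all tested genes, 11 had an unadjusted p below 0.05, against 9.62%, and the median log2 fold change was -0.37. Of 16 genes of class I assembly and peptide supply, 14 lay below 0, with a median of -0.31. B2m, the light chain that every class I heavy chain needs, was at 916, 681, 1232, 1339 and 1687 CPM in Fes WT and 769.8, 969, 389, 1078 and 409.7 CPM in Fes KO (-0.70, SE 0.34, adjusted p = 0.560). Fes KO 3 and Fes KO 5 were lowest for B2m as for H2-K1 and H2-D1. The peptide transporter gene Tap1 had -0.34 (SE 0.38) and the bridging factor Tapbp -0.38 (SE 0.20). The immunoproteasome subunits Psmb8 and Psmb9 had -0.66 (SE 0.38) and -0.72 (SE 0.45), and the peptide trimming enzyme Erap1 had -0.43 (SE 0.20), all with an adjusted p of 0.536 or more.

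Of the 7 class II loading genes, 6 lay below 0, with a median of -0.58. Cd74, the invariant chain that guides class II molecules, was at 457, 498, 948, 296 and 996 CPM in Fes WT and 265, 630.5, 165, 541 and 262 CPM in Fes KO (-0.78, SE 0.44, adjusted p = 0.595). As for H2-Aa, Fes WT 3 and Fes WT 5 were highest and Fes KO 2 and Fes KO 4 lay above 3 Fes WT tumours. The proteases that cut the invariant chain and antigens had -0.98 for Ctss (SE 0.45, adjusted p = 0.523), -0.58 for Ctsl (SE 0.22, adjusted p = 0.442) and -0.77 for Lgmn (SE 0.31, adjusted p = 0.468).

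Among 16 transcription regulators, 11 lay below 0, with a median of -0.18. Nlrc5, the activator of class I genes, was at 26.8, 30.9, 37.6, 36.3 and 83.2 CPM in Fes WT and 26.9, 32.7, 7.58, 34.3 and 10.1 CPM in Fes KO (-0.94, SE 0.47, adjusted p = 0.562). The same 2 tumours, Fes KO 3 and Fes KO 5, set the lower end. Ciita, the activator of class II genes, spanned 7.90 to 21.3 CPM in Fes WT and 3.70 to 11.9 CPM in Fes KO (-0.72, SE 0.35, adjusted p = 0.557). Rfx5, which binds the X box in both classes, was at -0.04 (SE 0.16, adjusted p = 0.945), and Nfya, a subunit of the Y box factor, at 0.54 (SE 0.18, adjusted p = 0.361).

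Of the interferon gamma signalling genes 12 of 14 tested lay below 0, with a median of -0.41. Ifng itself, the ligand, did not pass the filter, with 0.116 ± 0.158 CPM over the Fes WT tumours and 0.0262 ± 0.0585 CPM over the Fes KO tumours (SD, n = 5 each). The receptor chain gene Ifngr1 was at 204, 218, 170.4, 165 and 192 CPM in Fes WT and 127, 124, 133, 172 and 142 CPM in Fes KO. A single Fes KO tumour, Fes KO 4, lay inside the Fes WT range. Its log2 fold change was -0.44 (SE 0.12), with an adjusted p of 0.239 in edgeR and 0.0292 in DESeq2. Irf1, a transcription factor that binds the interferon-stimulated element, was at 66.6 to 104 CPM in Fes WT and 53.1 to 78.4 CPM in Fes KO (-0.50, SE 0.14, adjusted p = 0.278 in edgeR and 0.0473 in DESeq2). DESeq2 called Ifngr1 and Irf1 and no other gene of the 6 lists, 2 of 71 against 1.86% of all genes.

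Of the 19 receptors that bind MHC molecules, 11 were tested and lay below 0, with a median of -0.84, and 8 did not pass the filter. Pirb, named after its values were seen, is an inhibitory class I receptor of myeloid and B cells, and had 37.1 ± 17.6 CPM over the Fes WT tumours and 20.8 ± 15.0 CPM over the Fes KO tumours (SD, n = 5 each), with -0.84 (SE 0.50, adjusted p = 0.619). Cd4, the class II coreceptor, had 4.37 ± 3.64 CPM over the Fes WT tumours and 2.94 ± 2.14 CPM over the Fes KO tumours (SD, n = 5 each), with -0.56 (SE 0.60, adjusted p = 0.794), and turned to 0.07 without Fes WT replicate 5. Cd8a, the class I coreceptor, had -1.26 (SE 0.69, adjusted p = 0.589), and Klrk1, the receptor NKG2D for MHC-like ligands, -1.34 (SE 0.44, adjusted p = 0.369). Lag3, an inhibitory receptor for class II, had -0.96 (SE 0.36, adjusted p = 0.432). Cd160, named after its values were seen, was the 1 gene of the 6 lists whose groups did not overlap, with 1.48 ± 0.186 CPM over the Fes WT tumours and 1.13 ± 0.144 CPM over the Fes KO tumours (SD, n = 5 each), with -0.40 (SE 0.18, adjusted p = 0.527). Its groups were apart by little, the nearest tumours being at 1.29 and 1.30 CPM, and non-overlap held for 1.90% of all tested genes.

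MHC-like molecules encoded outside the complex did not lean to one side, with 5 of 9 tested below 0. Fcgrt, the neonatal Fc receptor that recycles antibodies, had -0.38 (SE 0.13, adjusted p = 0.388), and Hfe, which regulates iron uptake, -0.48 (SE 0.19, adjusted p = 0.467). Their median was -0.17, nearer to 0 than the median of each MHC class.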

How the data were processed

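RNA from 10 melanomas was sequenced. The authors deposited raw counts per gene and, of the same genes, log2 values, which were found to be log2(count / size factor + 1). Per the submitters' processing notes, the tools were STAR 2.51b, Subread 1.4.6 and FastQC, on GRCm38. Neither settings nor strand are stated in the labels or files. Sample titles gave the groups and numbers.

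Counts were tested with edgeR 4.0.16 in R 4.3.3 (TMM, filterByExpr with the group, quasi-likelihood test, 2-sided) with Benjamini-Hochberg adjustment over 14816 genes and a threshold of 0.05, and checked on simulated counts. CPM use TMM library sizes, and lengths per kilobase are exon unions of GENCODE M21. Alternatives were DESeq2 1.42.0, limma 3.58.1 (voom, and on the deposited log2 values), other scalings and filters, a replicate block and left-out tumours. The members and gene lists were chosen with earlier results of these data known. Named were called, non-overlapping and on and off members, the 5 most abundant of each class, class II genes and pathway genes by role, and the 2 lowest p-values of each list. Positions came from GENCODE M21, and intervals and floors cover counting error only. Some genes of these lists are not reported here by name.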

Additional observations from a re-analysis of the deposited data

Results flagged for a closer look

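In 5 of 105 groups of 5 tumours checked, over 53 genes, 1 tumour stood apart, its gap to the nearest tumour on the log2 scale taking more than 0.71 of the group's range. Chance flags about 1 in 20 such groups. H2-T23 was at 219 CPM in Fes WT 5 against 65.6 to 88.2 CPM in the other Fes WT tumours. H2-Eb2 was at 1.31 CPM in Fes WT 3, above 0.122 to 0.196 CPM in the others. H2-M2 was at 3.18 CPM in Fes KO 2 against at most 0.126 CPM in the other Fes KO tumours. In Fes KO 4, Hfe was at 70.2 CPM against 44.8 to 49.9 CPM, and the protease gene Lgmn at 405 CPM against 151 to 194 CPM.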

How the results depend on the processing

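Over 20 alternatives, edgeR called 0 of the tested MHC genes except without Fes WT replicate 5, where H2-M3 was called (1 gene), so that leaving out 1 tumour gave 0 to 1. DESeq2 called 2 MHC genes and 2 genes of the antigen presentation lists. Over all genes, the 26 calls became 270 with DESeq2, 4 with the replicate block and 64 without the 3 Xist-expressing tumours (Fes KO 1, Fes KO 2 and Fes WT 5), and 10 to 54 when 1 tumour was left out. The replicate block left 0 MHC genes called. Replicate numbers did not pair the tumours, since same-numbered tumours correlated at -0.38 to 0.17. The 25 tested members gave 498 fold changes over the alternatives, of which 12, in 5 genes, turned sign, all of them far from the threshold. With 1 tumour left out, H2-Q1 ranged from -0.77 to 0.67 (above 0 without Fes WT replicate 5 or Fes KO replicates 3 or 5), H2-M9 from -0.66 to 0.52 (without Fes WT replicate 2 or Fes KO replicates 1 or 2), H2-Oa from -0.29 to 0.014 (without Fes WT replicate 2), H2-DMb2 from -0.59 to 0.034 (without Fes WT replicate 5), H2-T10 from -0.15 (without Fes KO replicate 4) to 0.35, Rfx5 from -0.0996 to 0.070 (without Fes WT or Fes KO replicate 4) and Cd4 from -1.08 to 0.065 (without Fes WT replicate 5). H2-Q1 was 0.015 in limma-voom, H2-M9 was 0.23 and Cd4 0.22 without the Xist-expressing tumours, and H2-M9 was 0.14 without Fes KO 2 and Fes WT 3. The causes were not tested. Of the 25 tested members, 19 moved by over 1.5 times or turned sign with some 1 tumour left out, 14 of them without Fes WT replicate 5, a comparison chosen after seeing the data. Class medians stayed below 0, at -1.24 to -0.63 for classical, -0.91 to -0.48 for non-classical class I and -0.78 to -0.42 for class II genes. The count of on and off members was 4 to 6. Members under the filter have too few counts to compare.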
